A study of Mus musculus with 71 samples.

Results

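The interferon-stimulated and antigen processing genes described here are 33 named mouse genes. A probe set (the group of short probes that measures 1 transcript on the array) was taken for a member where the platform annotation gave its symbol and no other, and each gene was represented by the probe set of highest mean log2 intensity over the 71 arrays. Of the 33 members, 31 were represented in this way, among 18193 genes. Ifi44 was not in the annotation used here and the probe set of Isg15 was annotated to a further gene as well, so neither has a value. The rule that picks the probe sets uses gene names and the mean level over all arrays, and no difference between groups. The members themselves were chosen with earlier results of these data known. Counts of members set beside shares of all genes are therefore description only.

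The study asked what the loss of GLP (gene Ehmt1) or G9a (gene Ehmt2) does to gene expression in the brain. The enzymes work as a pair and methylate histone H3 at lysine 9, up to the dimethyl state that marks silent chromatin. Total RNA of hippocampus, hypothalamus, striatum or cortex came from mice of 10 to 14 weeks (12 weeks per the protocol). Mutants carried Camk2a-Cre together with either GLPfl/fl or G9afl/fl, and control littermates of like age and sex had the same floxed allele on both chromosomes but, per the labels, no Cre. Camk2a-Cre acts in forebrain neurons, so that glia, vessel cells and immune cells of a tissue keep the enzyme. These 59 arrays form 16 groups of 4, apart from the G9a hippocampus controls with 3 arrays and both G9a cortex groups with 2. The other 12 arrays, in 4 groups of 3, hold polyribosome-associated messenger RNA of striatal medium spiny neurons. It was pulled down through a GFP-tagged ribosomal protein (bacTRAP) from pools of 5 mice each, also of 10 to 14 weeks. The mutant pools carried Drd1-Cre with Drd1-bacTRAP or Drd2-Cre with Drd2-bacTRAP, the control pools only the bacTRAP transgene, and all pools were G9afl/fl.

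Interferons are secreted signals released when a cell senses viral nucleic acid. Type I interferon activates transcription factors, Stat2 and Irf9 among them, that bind the interferon-stimulated response element (ISRE) of target promoters, while interferon gamma acts on a shorter element named GAS. The induced genes block steps of viral growth, raise the sensors of viral RNA and supply the machinery that cuts proteins into peptides and loads them onto MHC class I. In healthy brain these genes are expressed at a low tonic level by neurons, glia and vessel cells.

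A look at the promoters shows which members carry these elements. The 250 bases before an annotated start were available for 27 of the 33 members (RefSeq, GRCm38.p6). They were searched for GAAANNGAAA, the core of the ISRE, on both strands, and for TTCNNNGAA, the GAS core, which reads the same on both. The ISRE core was found in 12 of the 27 members (44.4%), against 3.46% of all 27025 genes with such a window. The GAS core was found in 6 of the 27 (22.2%), against 8.13% of all genes. The following 30-base stretches, 5′ to 3′ on the gene's strand, show the ISRE core in capitals for 6 members, namely the antiviral effectors Ifit1 and Isg15, the interferon-induced GTPases Igtp, Irgm1 and Gbp3, and B2m of antigen presentation; a core on the opposite strand reads as its reverse complement, and in Gbp3, Irgm1 and Isg15 a further match overlaps the printed one.
Ifit1 (within chr19:34640639-34640888, plus strand): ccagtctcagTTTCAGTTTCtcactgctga
Isg15 (within chr4:156200819-156201068, minus strand): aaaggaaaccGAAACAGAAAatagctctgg
Igtp (within chr11:58199306-58199555, plus strand): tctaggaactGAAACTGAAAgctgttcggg
Irgm1 (within chr11:48871421-48871670, minus strand): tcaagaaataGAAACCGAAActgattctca
Gbp3 (within chr3:142559794-142560043, plus strand): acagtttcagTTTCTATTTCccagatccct
B2m (within chr2:122147437-122147686, plus strand): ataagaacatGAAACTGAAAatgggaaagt
The whole 250-base windows of Ifitm1, Ifitm2 and Ifitm3 are given because these 3 genes lie side by side on chromosome 7 and only Ifitm2 was called between mutants and controls. The window of Ifitm2 holds 1 ISRE core, in capitals, which ends 36 bases before the start that the window precedes. The windows of Ifitm1 and Ifitm3 hold neither core. Those of Ifitm1 and Ifitm2 lie inside the annotated spans of their genes (chr7:140967429-140969827 and chr7:140954837-140959686), so bases before the outermost start were not searched.
Ifitm1 (chr7:140967826-140968075, plus strand): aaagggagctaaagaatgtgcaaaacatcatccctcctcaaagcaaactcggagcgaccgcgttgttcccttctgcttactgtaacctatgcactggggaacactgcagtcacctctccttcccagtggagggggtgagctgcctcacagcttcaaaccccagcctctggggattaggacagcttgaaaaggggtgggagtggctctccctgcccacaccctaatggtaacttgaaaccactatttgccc
Ifitm2 (chr7:140955962-140956211, minus strand): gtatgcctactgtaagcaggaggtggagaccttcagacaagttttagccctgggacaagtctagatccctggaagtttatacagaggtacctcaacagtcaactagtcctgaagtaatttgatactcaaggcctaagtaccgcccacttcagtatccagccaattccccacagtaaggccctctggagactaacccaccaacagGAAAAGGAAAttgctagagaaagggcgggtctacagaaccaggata
Ifitm3 (chr7:141010745-141010994, minus strand): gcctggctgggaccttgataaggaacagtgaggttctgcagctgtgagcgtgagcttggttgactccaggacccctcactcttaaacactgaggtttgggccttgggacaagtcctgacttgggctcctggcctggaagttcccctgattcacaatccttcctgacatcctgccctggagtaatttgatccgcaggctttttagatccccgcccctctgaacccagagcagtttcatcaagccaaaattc
A match is a run of letters, not a shown binding site, and the absence of a match covers this window only.

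All levels below are log2 intensities on a scale where 0 is the median of the array, so a value states how a probe set stands within its own array and not which of 2 genes is more abundant. A change is the difference of group means, mutant minus control, so that 1 is a doubling. It was tested with limma (moderated tests over all genes that passed a filter) and called at an adjusted p under 0.05 after Benjamini-Hochberg correction over the genes tested.

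The deleted genes were read first, as a check of the labels. Ehmt1 fell on loss of GLP in hippocampus (-0.58, adjusted p = 0.00103), striatum (-0.46, adjusted p = 0.0191) and cortex (-0.76, adjusted p = 7.57e-06), and its change in hypothalamus was -0.16 (adjusted p = 0.713). Ehmt2 fell in all 4 G9a tissues, by 1.02 to 1.76 on the log2 scale. In the neuron pools labelled as G9a mutants, Ehmt2 lay at 1.56 to 5.01 in Drd1 neurons against 5.49 to 6.22 in controls. That difference was not called, as 0 of 12060 genes tested were called down there. Ehmt1, not deleted in these pools, lay at 1.53 to 3.49 in Drd1 mutants and at 3.44 to 4.12 in their controls. In Drd2 neurons Ehmt2 lay at 5.91 to 6.04, within the control range of 5.18 to 6.93. The Drd2 neuron comparison therefore has no measured loss of Ehmt2 behind it, and directions from it rest on the labels alone. Read from Xist and Eif2s3y, all GLP arrays had the female pattern, the G9a cortex arrays the male one, and the other G9a tissues held both. The pools were not alike in Eif2s3y. It lay at -1.66 to 0.34 in Drd1 controls and -0.22 to 4.47 in Drd1 mutants. In Drd2 controls it lay at 3.02 to 4.67 and in Drd2 mutants at 2.36 to 5.04. Sex was not fitted in the pools.

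Levels of the members differed widely. B2m, the light chain of MHC class I, and Ifi27, a small interferon-induced protein of mitochondria, were above the array median in all 71 arrays, at 2.53 to 6.97 and 2.75 to 6.49. Ifit2 and Ifit3, which bind viral RNA and its partners, were also above it in 71 arrays, at 1.07 to 4.19 and 0.08 to 4.28, and Ifitm3 in 68. At the other end, Isg20, an exonuclease that degrades RNA, the antiviral GTPases Mx1 and Mx2, and Tap1, a subunit of the peptide transporter of the endoplasmic reticulum, were below the median in every array. Irf7, the factor that amplifies the type I response, exceeded it in 1 array only. These 5 probe sets, with those of Dhx58 and Usp18, passed the filter in no mutant comparison, so that a change in these 7 members was not tested.

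**Figure D1:**
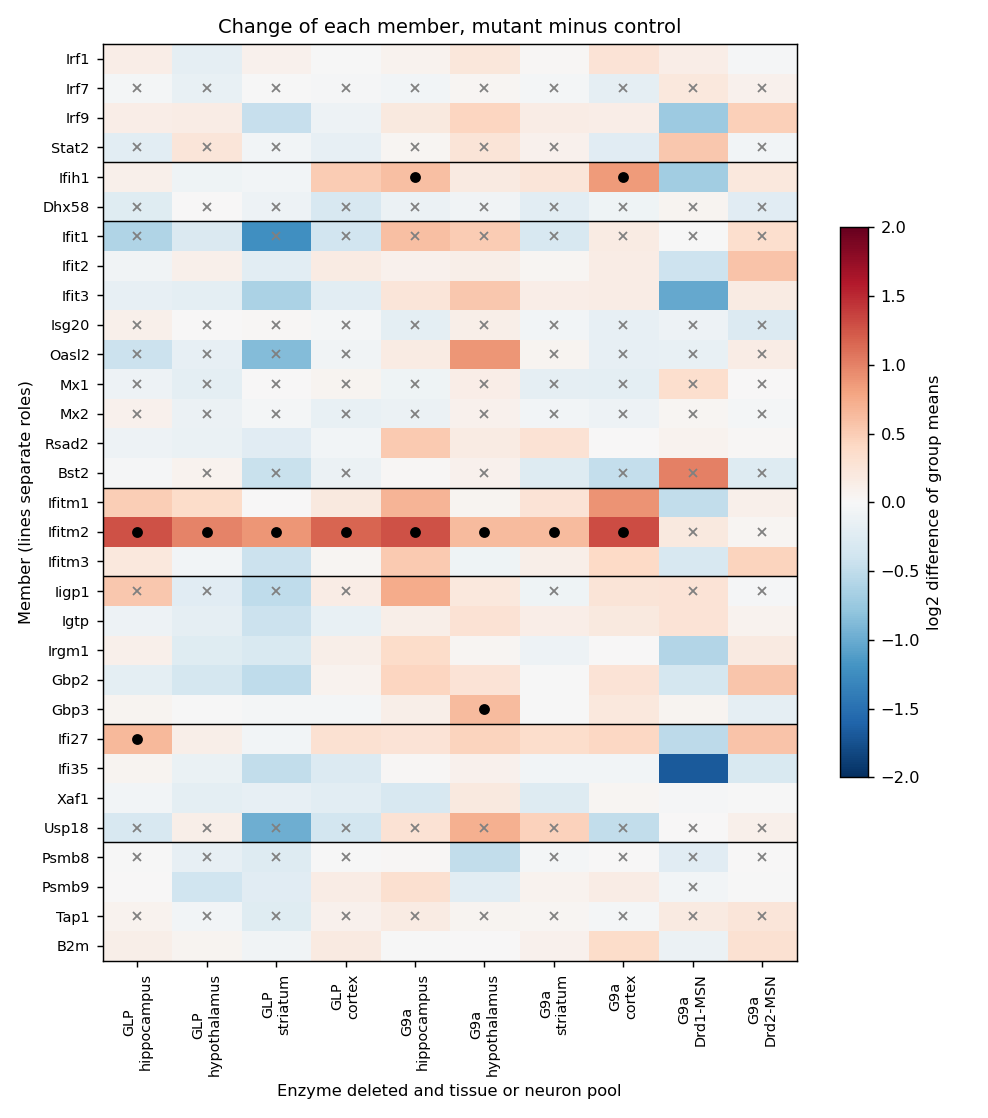
Change of each of the 31 measured members (rows, ordered by role) in the 10 mutant comparisons (columns), as log2 difference of group means by colour. Black dots mark changes called at an adjusted p under 0.05, grey crosses members below the filter; the row of Ifitm2 holds 8 of the 12 dots, and no dot marks a fall.

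Over the 8 tissue comparisons the members gave 157 tests, of which 12 were called, all of them rises. Ifitm2 gave 8 of these, Ifih1 gave 2, and Gbp3 and Ifi27 gave 1 each. By role, 8 of 24 tests of IFITM proteins, 2 of 8 of viral RNA sensors, 1 of 35 of interferon-induced GTPases and 1 of 24 of the other stimulated genes were called. No call came from the 30 tests of antiviral effectors, the 18 of transcription factors or the 18 of antigen processing genes. Among the 145 tests without a call, changes ran from -0.63 to 0.89, and in 138 of them the 95% interval of the change lay within 1 of 0 on the log2 scale, so that a doubling was outside the interval.

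On loss of GLP, 2 of 19 members tested rose in hippocampus, against 1.74% of all genes tested. Likewise 1 of 19 rose in hypothalamus (0.815% of all genes), 1 of 18 in striatum (1.14%) and 1 of 19 in cortex (1.31%). On loss of G9a, 2 of 22 members rose in hippocampus (2.17%), 2 of 21 in hypothalamus (1.59%), 1 of 19 in striatum (1.87%) and 2 of 20 in cortex (0.616%). No member fell in any tissue. Among all genes, 0.325%, 0.165%, 0.502% and 0.233% fell in GLP hippocampus, hypothalamus, striatum and cortex, and 0.469%, 0.759%, 1.16% and 0.103% in the G9a tissues in the same order. In limma without adjustment, rises at p under 0.05 numbered 3, 1, 1 and 3 in GLP hippocampus, hypothalamus, striatum and cortex and 6, 6, 2 and 4 in the G9a tissues in the same order. Falls numbered 6 in GLP striatum, 1 in GLP hypothalamus and 1 in G9a hypothalamus, with none in the other 5 tissues. For counts without adjustment, here and below, the share over all genes was not taken. They therefore do not set the members apart from other genes. The median change of the members tested was 0.06, -0.13, -0.22 and 0.04 in the GLP tissues and 0.22, 0.19, 0.09 and 0.20 in the G9a tissues, where the median over all genes tested lay between -0.02 and 0.03.

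Ifitm2, a membrane protein that hinders the fusion of enveloped viruses with the cell, rose in all 8 tissue comparisons. In bulk tissue a rise in RNA per cell and a rise in the number of cells of a type cannot be told apart. In GLP hippocampus the 4 controls read 0.71, 0.44, 0.57 and 0.63 and the 4 mutants 1.67, 1.92, 1.76 and 2.09, a change of 1.27 ± 0.17 (SE) or 2.42-fold (adjusted p = 6.7e-07). In GLP hypothalamus controls read -0.31, -0.31, -0.51 and -0.41 and mutants 0.63, 0.81, 0.64 and 0.34, a change of 0.99 ± 0.17 (adjusted p = 0.000207). In GLP striatum controls read -0.71, -0.49, -0.41 and -0.01 and mutants 1.02, 0.33, 0.39 and 0.18, a change of 0.88 ± 0.17 (adjusted p = 0.00088). Every mutant of these regions lay above every control, and mutant 1 of the striatum stood well above its fellows. In GLP cortex controls read -0.08, -0.17, 0.17 and 0.17 and mutants 1.07, 1.51, 1.19 and 0.98, a change of 1.17 ± 0.17 or 2.24-fold (adjusted p = 4.35e-06), again without overlap.

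Loss of G9a gave the same order of Ifitm2 values. In G9a hippocampus controls read 0.77, 0.86 and 0.61 and mutants 1.39, 2.33, 2.07 and 2.27, a change of 1.27 ± 0.19 or 2.41-fold (adjusted p = 3.14e-06). In G9a hypothalamus controls read 0.30, 0.18, 0.10 and -0.06 and mutants 0.90, 1.17, 0.59 and 0.39, a change of 0.63 ± 0.17 (adjusted p = 0.0337). In G9a striatum controls read 0.10, 0.46, 0.23 and 0.64 and mutants 0.78, 0.99, 0.99 and 1.20, a change of 0.63 ± 0.17 (adjusted p = 0.0262). The groups did not overlap in these regions, although the highest striatal control (0.64) came close to the lowest mutant (0.78). In G9a cortex the 2 controls read -0.02 and 0.26 and the 2 mutants 1.27 and 1.58, a change of 1.30 ± 0.24 or 2.47-fold (adjusted p = 0.000733).

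**Figure D2:**
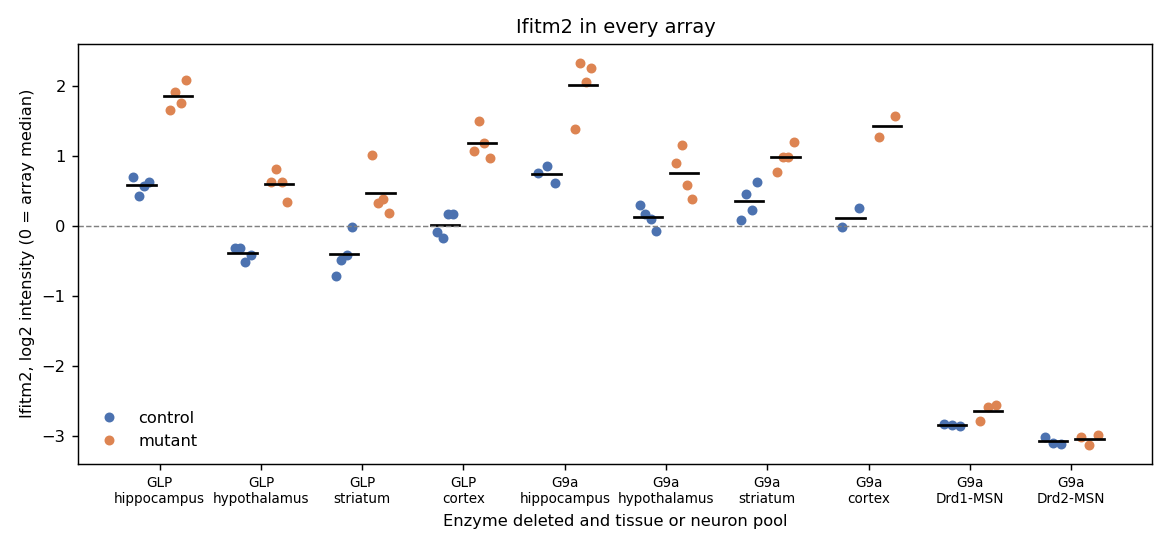
Ifitm2 log2 intensity (0 is the array median) in every array, with controls in blue, mutants in orange and black bars at group means. Mutants lie above controls in all 8 tissues, and the 12 neuron pools lie between -3.12 and -2.56.

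The calls of Ifitm2 were not equally firm. In GLP hypothalamus and GLP striatum all controls were below the array median, so that Ifitm2 entered these tests through the mutants alone; tested with no filter it was also called there (adjusted p = 0.000213 and 0.000894). With values below the median raised to it, the change of Ifitm2 was 0.61 in GLP hypothalamus (adjusted p = 0.0309) and 0.48 in GLP striatum (adjusted p = 0.131, call lost). Leaving out any 1 array kept the call in the 4 GLP tissues and in G9a hippocampus, but the call was lost without any 1 of 4 arrays in G9a hypothalamus (adjusted p up to 0.101), 5 in G9a striatum (up to 0.156) and 2 in G9a cortex (up to 0.0772). With the spread estimated from the compared groups alone, the call was lost in GLP striatum (adjusted p = 0.116), G9a hypothalamus (0.633), G9a striatum (0.0526) and G9a cortex (0.054). Ifitm2 was 1 of 7 genes called up in all 8 tissues, out of 797 called up in at least 1, the others being Ces5a, Dach2, Gstm7, Olfm4, Serpinb1b and Tnnt2. By size its rise took place 86 of 203 among the genes called up in GLP hippocampus and 55 of 72 in G9a cortex. Markers of other cell types were called in several of these tissues: 11 of 13 of choroid plexus, 2 of 14 of endothelium and 1 of 12 of meninges in GLP hippocampus, 1 of 4 of blood cells in GLP striatum, 3 of 12 of meninges and 1 of 14 of endothelium in G9a hippocampus, and 1 of 14 of microglia in G9a hypothalamus, all of them rises. None of these lists nor that of astrocytes had a call in the other 4 tissues, and the part of these cells in the rises of Ifitm2 was not tested.

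The neighbours of Ifitm2 did not pass the test. Ifitm1 was higher on average in mutants of all 8 tissues, with changes of 0.01 to 0.89 and a mean of 0.37. In G9a hippocampus its controls read 1.17, 1.83 and 1.75 and its mutants 1.62, 2.02, 2.28 and 3.11, a change of 0.68 ± 0.23 (adjusted p = 0.128). Those groups overlap. Of the 7 fits that left out 1 array, Ifitm1 was called in 1, the fit without mutant 1, its lowest mutant (change 0.89, adjusted p = 0.0243). Ifitm3, the best studied antiviral member of the family, was higher on average in 5 of 8 tissues, with changes of -0.43 to 0.52. The 95% interval of the Ifitm3 change was -0.14 to 0.57 in GLP hippocampus and -0.31 to 0.40 in GLP cortex. In G9a hippocampus it was 0.14 to 0.91 (adjusted p = 0.179) and in G9a cortex -0.10 to 0.91. In striatum it was -0.78 to -0.07 for GLP (adjusted p = 0.337) and -0.24 to 0.47 for G9a. In hypothalamus it was -0.42 to 0.30 for GLP and -0.44 to 0.27 for G9a. Further out along the chromosome, Pgghg and B4galnt4 were tested in all 8 tissues without a call, and Cox8b, Nlrp6, Ifitm5 and Ifitm6 were below the filter. Genes of the family resemble each other in sequence, and whether the Ifitm2 probes bind transcripts of its relatives was not tested.

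**Figure D3:**
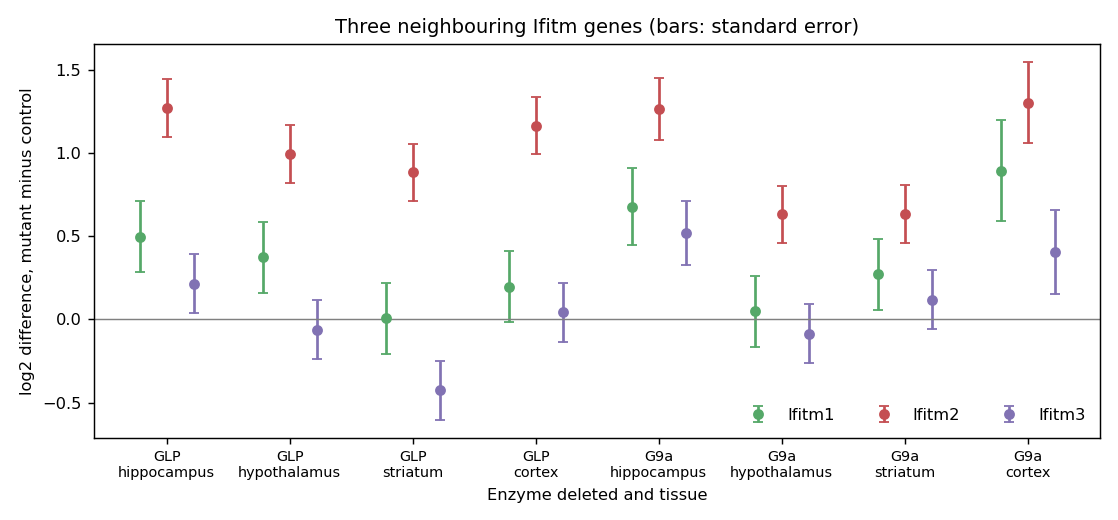
Change of Ifitm1, Ifitm2 and Ifitm3 in the 8 tissues as log2 difference of group means, with bars of 1 standard error. Ifitm2 lies at 0.63 to 1.30, Ifitm1 at 0.01 to 0.89 and Ifitm3 at -0.43 to 0.52.

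Ifih1 (MDA5), a cytoplasmic sensor of long double-stranded RNA, rose on loss of G9a in hippocampus and cortex. In hippocampus controls read 1.29, 1.10 and 1.06 and mutants 1.80, 1.69, 1.68 and 1.84, a change of 0.60 ± 0.17 or 1.52-fold (adjusted p = 0.031). In cortex the 2 controls read 1.43 and 1.47 and the 2 mutants 2.32 and 2.27, a change of 0.85 ± 0.22 or 1.80-fold (adjusted p = 0.0404). The groups were tight and far apart in both regions. In GLP cortex controls of Ifih1 read 1.42, 1.81, 1.81 and 1.75 and mutants 2.08, 2.18, 2.34 and 2.24, again without overlap. The change of 0.51 ± 0.15 was not called (adjusted p = 0.0901). The calls of Ifih1 were lost without any 1 of 5 arrays in G9a hippocampus (adjusted p up to 0.143) and any 1 of the 4 in G9a cortex (up to 0.441), and in hippocampus also with the compared groups alone (0.0712). The Ifih1 promoter window holds neither core, and Dhx58, the sensor LGP2 that works with it, stayed below the filter.

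Gbp3, a guanylate-binding protein that attacks vacuoles of intracellular pathogens, rose in G9a hypothalamus. Its controls read 1.75, 1.64, 1.86 and 1.94 and its mutants 2.11, 2.49, 2.48 and 2.66, a change of 0.64 ± 0.16 or 1.55-fold (adjusted p = 0.0236), without overlap. The call was lost without any 1 of 4 arrays (adjusted p up to 0.0968) and with the spread estimated from these 2 groups alone (0.435). The related GTPases Igtp, Irgm1 and Gbp2 were tested in all 8 tissues without a call. For Iigp1, which targets parasite vacuoles, the 2 probe sets of the gene had the same direction in G9a hippocampus but differed in the call. The one used read -0.30, 0.34 and -0.02 in G9a hippocampus controls and 0.60, 0.82, 0.54 and 1.02 in mutants, a change of 0.74 that was not called (adjusted p = 0.119). The other probe set of Iigp1 gave -1.14 to 0.04 in controls and 0.54 to 1.40 in mutants, a change of 1.46 ± 0.31 that was called in a fit over single probe sets (adjusted p = 0.00265). Neither pair of groups overlaps.

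Ifi27 rose in GLP hippocampus, from controls of 6.01, 5.63, 5.49 and 5.45 to mutants of 6.24, 6.49, 6.25 and 6.18. The change of 0.65 ± 0.14 or 1.57-fold (adjusted p = 0.00315) was called without any 1 of the 8 arrays, and the second probe set of Ifi27 gave 0.67 (adjusted p = 0.0106). Control 1 of this hippocampus was the high control for 24 of the 31 members, and for 45.8% of all genes. Markers of choroid plexus moved with the group in GLP hippocampus: 11 of 13 tested rose, and the mean of the list was 0.16 to 2.04 in control arrays against 2.77 to 3.68 in mutant ones. Their part, and that of the endothelial and meningeal cells whose markers rose there too, in the rises of Ifi27 and Ifitm2 was not tested. In G9a hypothalamus Ifi27 changed by 0.45 (adjusted p = 0.0702) without overlap.

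**Figure D4:**
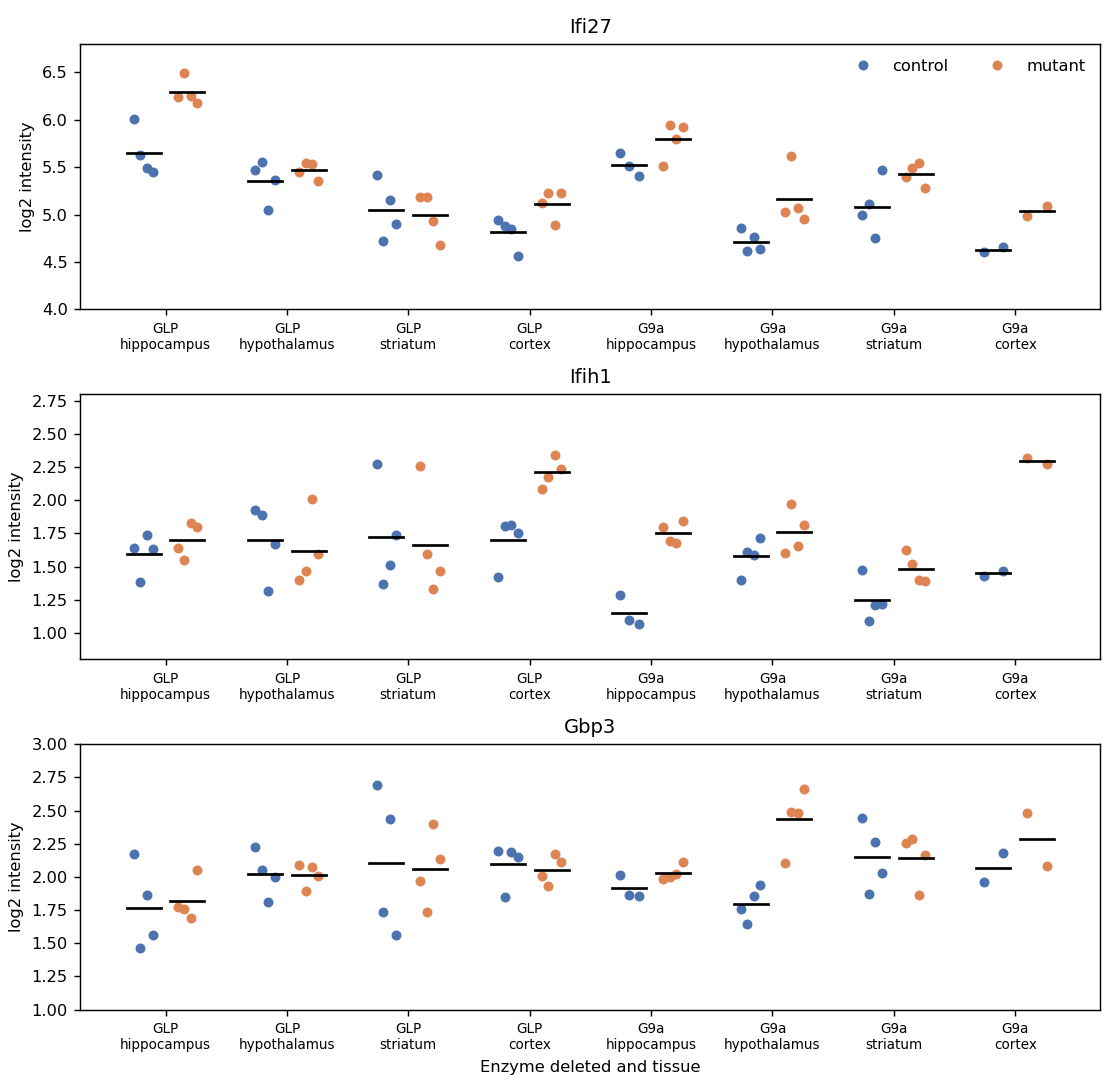
Log2 intensity of Ifi27, Ifih1 and Gbp3 in every tissue array, with controls in blue, mutants in orange and black bars at group means; the vertical axes differ between panels and do not start at 0. Called rises are Ifi27 in GLP hippocampus, Ifih1 in G9a hippocampus and G9a cortex, and Gbp3 in G9a hypothalamus.

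The interferon transcription factors and antiviral effectors gave no call. Of the factors, Irf1 and Irf9 were tested in all 8 tissues and Stat2, the partner of Irf9, in 2. Rsad2 (viperin), which makes a nucleotide that stops viral RNA synthesis, was tested in all 8 tissues, as were Ifit2 and Ifit3. The largest change among the tests of these roles was that of Oasl2, an oligoadenylate synthetase-like protein, in G9a hypothalamus. Its controls read 0.78, 0.48, 0.14 and 0.80 and its mutants 1.39, 1.27, 1.44 and 1.63, and the change of 0.88 was not called (adjusted p = 0.0779), although the groups do not overlap. Ifit1 changed by -1.22 in GLP striatum, where it was below the filter and not tested and where control 1, described below, was its highest control. Of the antigen processing genes, B2m and Psmb9 were tested in all 8 tissues and Psmb8 in 2, Psmb8 and Psmb9 being inducible subunits of the immunoproteasome. The largest change among them was -0.49 for Psmb8 in G9a hypothalamus (adjusted p = 0.173), where the groups overlap; its other probe set gave 0.18.

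No member passed the test of a difference between the effects of GLP and G9a. The change on loss of GLP minus that on loss of G9a was called for 0 of 22 members in hippocampus (0.1% of all genes tested), 0 of 22 in hypothalamus (0.00836%), 0 of 19 in striatum (0.00847%) and 0 of 20 in cortex (0.017%). In limma without adjustment, 2, 3, 5 and 0 members had p under 0.05 in these regions, each with the lower value on loss of GLP. The share of all genes at that threshold was not taken, so no pattern of the members is read from these counts. The change did not differ between the 4 regions for any of 21 members tested for GLP (1.08% of all genes) or 23 for G9a (1.32%); without adjustment 3 members passed in each, Ifitm2 among those of G9a (adjusted p = 0.348). These tests do not show that the effects are alike.

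Single arrays stood apart within their group. In GLP striatum control 1 was the highest of the 4 controls for 23 of the 31 members, against 23.5% of all genes, and its mean deviation from the group was 0.41 over the members and -0.00 over all genes. There Ifit3 read 4.28 in control 1 and 2.26, 3.59 and 2.44 in the others, and Usp18, a protease that removes Isg15 from proteins, read 1.62 against -1.02, 0.97 and -1.37. Ifit1 and Oasl2 were also highest in control 1, with control 3 next. The microglia marker list was highest in the same array, at 4.15 against 3.76 to 3.86 in the other controls, and its part in these values was not tested. Without control 1 the median change of the members in GLP striatum was -0.10 in place of -0.22, and members with a fall at unadjusted p under 0.05 numbered 1 in place of 6. Leaving out any other single array of this comparison gave medians from -0.29 (without control 2) to -0.20 (without mutant 4). Such falls then numbered from 2 (without mutant 4) to 7 (without control 2, among others). Over the members control 2 of GLP striatum deviated by -0.29 and control 1 of GLP hippocampus by 0.36, and 68 of the 71 arrays deviated by 0.25 or less. The labels do not say whether these 2 regions came from 1 mouse.

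Other genes of the pathway, taken from lists of general knowledge, gave few further calls in tissue. None of them fell. Of the other interferon-stimulated genes, 48 of 56 listed were on the array, 21 to 26 were tested per tissue, and 1 rose in each of the 4 G9a tissues and 0 in the GLP tissues. Gbp6, another guanylate-binding protein, rose in G9a hippocampus from a control range of 0.06 to 0.76 to 2.27 to 2.68 in mutants, a change of 2.17 ± 0.26 or 4.49-fold (adjusted p = 1.87e-08). Gbp6 also rose in G9a striatum (1.20, adjusted p = 0.000813) and G9a cortex (1.44, adjusted p = 0.0151). Its changes of 0.77 in G9a hypothalamus and 0.83 in GLP cortex were not called (adjusted p = 0.0658 and 0.063). All controls of Gbp6 in G9a cortex (-0.54 to -0.06) and GLP cortex (-0.82 to -0.21) were below the array median. In these cortex tests Gbp6 therefore passed the filter through the mutants alone. Trim30a, a ubiquitin ligase that damps inflammatory signalling, rose in G9a hypothalamus by 0.82 (adjusted p = 0.00259).

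Genes upstream and downstream of these gave 2 calls. Of 18 receptors and signalling genes, 12 to 14 were tested per tissue and the sole call was Stat3 in G9a hypothalamus (0.50, adjusted p = 0.044), where its arrays overlap. No call came from 6 to 8 nucleic acid sensors tested per tissue or 3 to 7 MHC class II genes, and 1 interferon ligand was tested in 3 tissues without a call. Of 10 to 13 MHC class I genes tested, H2-Q2, a class I heavy chain of the Qa region, rose in GLP cortex, from a control range of -2.16 to -1.62 to 0.10 to 0.27 in mutants (1.99 ± 0.35, adjusted p = 0.000121). All controls of H2-Q2 there were below the array median, so it passed the filter through the mutants alone. H2-Q2 was higher on average in mutants of all 8 tissues, without a call outside GLP cortex. Its mutant mean was 4.13 in GLP hypothalamus (control mean 3.15) and -0.93 in G9a hippocampus (control mean -2.75). The call therefore does not set GLP cortex apart from the other tissues. Class I genes have near-identical copies, so the transcript behind this probe set is uncertain. Microglia markers gave 1 call (Ly86 in G9a hypothalamus) and astrocyte markers 0 across the 8 tissues, while 3 of 12 meningeal markers rose in G9a hippocampus, where that list averaged 1.54 to 2.10 (controls) and 1.98 to 3.40 (mutants). In G9a cortex the meningeal list averaged 1.39 to 2.20 (controls) and 2.52 to 2.60 (mutants), with 0 of 11 called, and the 7 MHC class II genes tested there had a median change of 0.75. The part of these cells in the rises of Ifitm2, Ifih1 and Gbp6 in both regions was not tested.

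In the neuron pools no member tested was called on loss of G9a, and 14 members were not tested in each kind of pool. Of 17 members tested in Drd1 neurons 0 were called, where 0.0166% of all genes rose and 0% fell, and of 17 in Drd2 neurons 0, where 0.0165% rose and 0% fell. Without adjustment limma gave 2 falls in Drd1 neurons, Ifit3 (-1.02) and Ifi35 (-1.68), and none in Drd2 neurons. The fall of Ifi35 came mainly from mutant pool 3, at -1.16, beside 1.70 and 1.06 in the other mutants and 1.54, 2.26 and 2.86 in controls. The other probe sets of Ifi35 went the opposite way there, by 0.14 and 0.18. Ifitm2 lay at -3.12 to -2.56 in all 12 pools, below the filter, and was not tested there. Of these 34 tests 13 had a 95% interval within 1 of 0, while the interval reached 1 or more in 11 and -1 or less in 12.

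Levels in control mice differed by region for most members, as they did for most genes. Over the 4 regions 20 of 24 members tested were called (83.3%), against 94% of all genes. Of the 20, 11 were highest in hypothalamus and 8 in hippocampus, and 11 were lowest in cortex. The same region was highest in the controls of both mouse lines for 13. The order of regions was not counted over all genes, so these counts do not set the members apart from the rest of the array. The smallest p was that of Ifit2, which read 3.36 to 4.17 in hypothalamus against 2.47 to 2.79 in cortex, 1.89 to 2.45 in hippocampus and 1.89 to 2.66 in striatum (adjusted p = 7.04e-22). Hypothalamus lay above cortex without overlap, and hippocampus and striatum did not differ beyond their spread. Bst2 (tetherin), which holds budding virus at the cell surface, averaged 0.62 in hippocampus, 0.05 in striatum, -0.87 in hypothalamus and -0.94 in cortex (adjusted p = 1.69e-09), the arrays of hippocampus and cortex being apart. Ifitm1 averaged 1.70 in hypothalamus, 1.42 in hippocampus, 1.11 in striatum and 0.31 in cortex (adjusted p = 2.67e-09), with cortex below all striatal arrays and the other regions overlapping. Irf1 averaged 2.46 in hippocampus, 2.28 in hypothalamus, 1.75 in cortex and 1.72 in striatum (adjusted p = 1.47e-08), with hypothalamus above cortex in every array and neither outer pair separated. Ifi27 averaged 5.58 in hippocampus, 5.07 in striatum, 5.04 in hypothalamus and 4.72 in cortex (adjusted p = 2.45e-08), where hippocampus and cortex alone are told apart by their extremes and neighbours in the order overlap.

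Control pools of Drd1 and Drd2 neurons differed in 6 of 18 members tested. In this comparison 7.64% of all genes were higher in Drd1 pools and 7.67% lower. The sex gene Eif2s3y read -1.66 to 0.34 in Drd1 and 3.02 to 4.67 in Drd2 control pools, without overlap. Xist overlapped, at -0.24 to 0.67 against 0.02 to 1.09. Neuron type and the sex of the pooled mice therefore cannot be told apart here. Psmb9 read -1.16, -1.30 and -0.39 in Drd1 pools and 0.67, 0.58 and 0.57 in Drd2 pools, a difference of -1.56 ± 0.23 (adjusted p = 0.00134). Ifitm3 read 0.08, 0.91 and -0.37 against 1.22, 1.64 and 1.45 (-1.23 ± 0.33, adjusted p = 0.0277). The antiviral Ifitm1 read 0.99, 0.74 and 0.62 against 2.07, 1.69 and 1.71 (-1.04 ± 0.28, adjusted p = 0.0301), and Gbp3 read 0.41, 0.48 and 0.42 against 1.53, 1.44 and 1.33 (-0.99 ± 0.28, adjusted p = 0.0333). These 4 members were thus lower in Drd1 pools, while 2 were higher. Ifit2 read 3.93, 3.35 and 3.07 in Drd1 pools against 1.07, 2.25 and 2.01 (1.67 ± 0.40, adjusted p = 0.0183), and Xaf1, a partner of apoptosis inhibitors, read 1.38, 1.96 and 1.58 against 0.61, 0.97 and 0.78 (0.86 ± 0.22, adjusted p = 0.0258). None of the 6 differences has overlapping pools. As the 6 were picked by their call on the same values, and the share over all genes was not taken, this adds no support. With any 1 of the 6 pools left out, 1 or 2 members were called, and no member was called in all of these fits. Of the other lists, 1 of 15 receptor and signalling genes (Irf5, -1.60) and 2 of 9 sensors (Sting1, the adaptor of DNA sensing, -2.10, and Ddx58, the sensor RIG-I, -1.19) were lower in Drd1 pools. Of 20 other stimulated genes 2 were higher (Uba7, 0.88, and Oas1a, 0.80) and 2 lower (Adar, -1.01, and Cxcl10, -0.83). Of 11 MHC class I genes Psme1 was higher (0.81), and Tapbp, which helps to load peptide, and H2-Q2 were lower (-2.21 and -1.11). Of 4 class II genes H2-Eb1 was higher (1.59), and H2-DMb2 (-1.08) and Ctss (-0.80) were lower. Markers of other cells moved too: 6 of 14 microglia markers were lower in Drd1 pools, their mean being 1.73 to 1.89 against 2.32 to 2.70, while 3 of 10 endothelial markers were lower and 4 of 8 choroid plexus markers higher. Their part in these differences was not tested.

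Set beside whole striatum of control mice, which is another RNA source and was not tested against them, the 6 control pools lay below all 8 striatal arrays for 4 of 18 members, against 3.15% of all genes, and above them for 0, against 35.9%. These were B2m (3.39 to 4.42 in pools, 5.38 to 6.40 in striatum), Ifitm3 (-0.37 to 1.64 against 3.16 to 3.57), Rsad2 (-0.09 to 0.46 against 1.09 to 3.00) and Gbp3 (0.41 to 1.53 against 1.56 to 2.69). In the same arrays 10 of 14 microglia markers and 11 of 13 endothelial and mural markers lay below striatum, and their part was not tested. Irf1 and Igtp overlapped between pools and striatum, at 1.61 to 2.02 against 1.48 to 2.07 and 1.30 to 1.93 against 1.18 to 2.36.

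**Figure D5:**
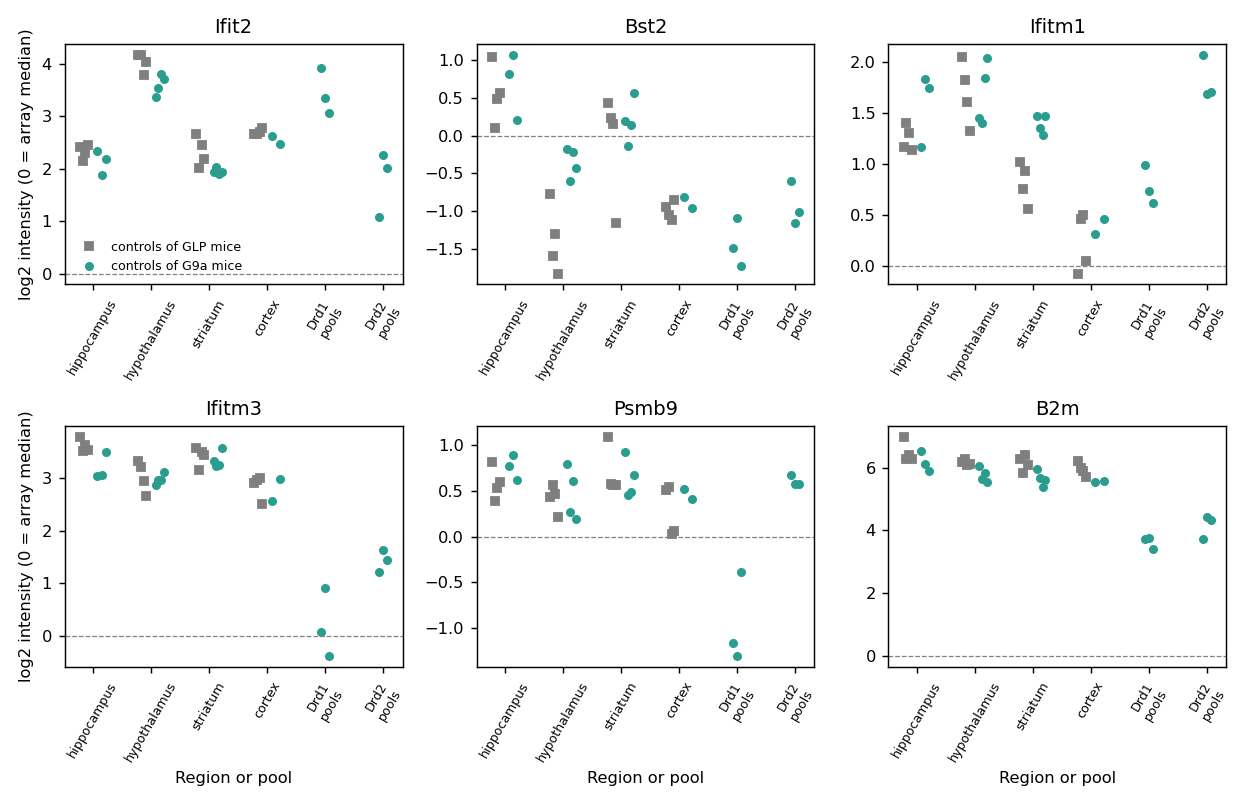
Log2 intensity (0 is the array median, dashed) of 6 members in control mice, by region and in Drd1 and Drd2 neuron pools, with squares for controls of the GLP line and circles for those of the G9a line; the axes differ between panels. Ifit2 is highest in hypothalamus, Psmb9 lowest in Drd1 pools, and Ifitm3 and B2m lie lower in both kinds of pool than in striatum.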

How the data were processed

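Each array was a mouse expression array of 45101 probe sets. The deposited values are linear intensities that the authors made with GCRMA, per the submitters' processing notes (version not given), and each array's median is 1. Their log2 was analysed. The smallest deposited value is 0.0271. The number of arrays limits the precision, and no counts or depths exist. No 2 arrays held the same values (highest correlation 0.9976).

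Probe sets with 1 annotated symbol were reduced to 18193 genes. The model was limma's (version 3.58.1, under R 4.3.3) with 1 mean a group and a trended variance. The 16 tissue groups entered 1 fit and the 4 polyribosome groups another, so that groups share the estimated spread. To be tested, a gene had to exceed log2 0 in a number of the compared arrays no lower than the size of the smaller group. Adjusted p-values are Benjamini-Hochberg values over all genes tested. P-values measure the spread between these arrays.

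Members and lists were chosen with earlier results of these data known. The rule named, with every array's value, the members called in a comparison (up to 6), and by group means the 5 of highest and of lowest level, up to 5 called in each test across regions and up to 4 called genes of each other list. Members named without a call, and other genes, were chosen after their values were seen. The scripts were tested on simulated data. Alternatives were another filter or none, a floor, quantile normalization, other probe set rules and the compared groups alone. Others were a replicate block, sex (in the tissue fit only) and leaving out each array. Same-numbered arrays correlated above 0.1 in every pair only in the Drd2 neurons (0.164, 0.384 and 0.484). In G9a hypothalamus the correlations were 0.636, 0.427, -0.01 and 0.398. Numbers were not taken as pairs in any main fit, that of the Drd2 neurons included, and pairing enters only through the replicate block. A genotype lacking both enzymes is not analysed here. Promoters were read with Python 3.11.15 and pandas 2.3.3.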

Additional observations from a re-analysis of the deposited data

How the results depend on the processing

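None of the 12 changes called in tissue turned its direction under the alternatives in which it was tested. Counts of called members moved by over 1.5 times as follows. With a floor at the array median GLP striatum gave 0 (Ifitm2 0.48, adjusted p = 0.131) and the G9a effect across regions gave 1 (Oasl2). With no filter G9a cortex gave 1 and Drd1 against Drd2 control pools 11. With a filter at log2 above 1, GLP hypothalamus, striatum and cortex and G9a striatum gave 0 and G9a hypothalamus 1, Ifitm2 being untested in these 5, and G9a cortex gave 1 (Ifih1, adjusted p = 0.0505, was lost). Where the fit held just the groups being compared, GLP striatum, G9a hypothalamus and G9a striatum gave 0, G9a hippocampus and cortex 1 each, and GLP cortex 2. With quantile normalization G9a hippocampus gave 1 and Drd1 against Drd2 pools 3. With the replicate number as a block GLP cortex gave 2, adding Ifih1 (0.51, adjusted p = 0.0309), and no other count changed. A block on numbers shared across regions or driver lines, chosen after the data were seen, gave 22 for region levels (20 without) and 1, Psmb9, for Drd1 against Drd2 control pools (6 without); the labels do not say that these numbers mark a shared mouse or batch. Leaving out 1 array gave 1 to 2 called members in G9a hippocampus, 0 to 3 in G9a hypothalamus (falls 0 to 1, Psmb8), 0 to 1 in G9a striatum and in G9a cortex, 18 to 21 for region levels and 1 to 2 for Drd1 against Drd2 pools. GLP counts did not move when 1 array was left out. Smaller moves were 14 to 26 for region levels over all settings, and 3 in G9a hippocampus and in G9a hypothalamus under the floor. The cause of these moves was not tested beyond the fewer arrays or genes that the settings themselves bring.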
